A study of Mus musculus with 4 samples.

Results

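The 8 genes described here encode the cardiac thick filament and the protein that anchors it: the myosin heavy chains *Myh6* and *Myh7*, the myosin light chains *Myl2*, *Myl3*, *Myl4* and *Myl7*, myosin binding protein C (*Mybpc3*) and titin (*Ttn*). They were found by gene symbol in the count matrices, where each symbol named 1 of 32285 genes. scRNA-seq was performed on ventricles of E14.5 mouse embryos of 2 genotypes. The *Ets1* eKO embryos were *Tie2*Cre;*Ets1* fl/fl, and their controls carried 1 floxed allele (*Tie2*Cre;*Ets1* fl/+). There were 2 libraries per genotype, each from 3 pooled ventricles. All libraries therefore carried the *Tie2*Cre transgene, which is active in endothelial cells and in part of the blood cells, and at least 1 floxed *Ets1* allele, so the controls were heterozygous in those cells and the cardiomyocytes were not the cells targeted. The unit of replication was the library (n = 2 per genotype), and p-values measure the spread between these pools. The question addressed is where in the developing ventricle each member was expressed and whether its level differed between *Ets1* eKO and control within a class of cardiomyocytes.

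Each thick filament is a bundle of myosin II molecules, and each myosin holds a pair of heavy chains with a motor head and, on each neck, an essential and a regulatory light chain. *Myh6* (alpha heavy chain) gives a fast motor and *Myh7* (beta heavy chain) a slower, more economical one, and in mice the ventricle uses *Myh7* before birth while the atria use *Myh6*. *Myl2* and *Myl7* are the ventricular and atrial regulatory light chains, and *Myl3* and *Myl4* are the ventricular and atrial essential light chains. *Mybpc3* binds the filament and the myosin heads and tunes cross-bridge formation, and *Ttn* spans from the Z-disc to the M-band as a spring and scaffold. These genes are in wide use as markers of chamber identity and of cardiomyocyte maturation.

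The libraries held 7949 to 14951 cell barcodes and 76931208 to 124140739 unique molecular identifiers (UMIs, 1 per captured transcript), and any pair of libraries shared 19 to 47 barcode sequences. *Ets1*, the deleted gene, was at 310.0, 282, 139 and 103 CPM (a gene's share of the UMIs of its class and library, scaled to a common total) in endothelial cells. Values of the 4 libraries are given in the same order throughout, control replicate 1, control replicate 2, *Ets1* eKO replicate 1, *Ets1* eKO replicate 2. It was lower in both *Ets1* eKO libraries, and in compact cardiomyocytes it was at 7.72, 10.7, 10.5 and 9.57 CPM. *Ets1* eKO replicate 2 was the shallowest library, with a median of 7126 UMIs per compact cardiomyocyte against 11232 to 11997 in the others.

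Cardiomyocytes were gated by summed UMIs of cardiomyocyte genes, none of them a member, and sorted into 5 classes by genes that are likewise not members. Compact cells were gated by *Tnnt1* without *Nppa*, trabecular cells by *Nppa* without *Tnnt1*, cycling cells by 12 cell cycle genes, *Sln*-rich cells by *Sln*, and atrioventricular canal (AVC) cells by *Rspo3*, *Tbx3* and *Tbx2*. The 4 libraries held 689, 367, 597 and 813 compact, 428, 226, 260 and 645 trabecular, 1401, 651, 1079 and 1845 cycling, 49, 61, 99 and 101 *Sln*-rich and 108, 156, 72 and 116 AVC cells, and the remaining gated cardiomyocytes fell in no class. Genes outside the gates followed the class names: *Hey2*, a compact zone factor, averaged 88.5 CPM in compact and 27.8 CPM in trabecular cells, and *Bmp10*, a trabecular growth factor, 0.690 and 112 CPM. *Aurkb*, a mitotic kinase, averaged 55.4 CPM in cycling and 1.78 CPM in compact cells. In *Sln*-rich cells *Nr2f1* and *Nr2f2*, factors of atrial myocardium, averaged 150.5 and 125 CPM against 1.27 and 1.5 CPM in compact cells, although the tissue is labelled as ventricle. The AVC gene *Rspo3* was also present in that class (314 CPM, against 1229 CPM in AVC cells), so the 2 small classes were not sharply apart.

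The members lie on 5 chromosomes of the mouse genome (positions from GENCODE vM21, GRCm38, the assembly of mm10). *Myh6* (ENSMUSG00000040752, chr14:54941921-54966927) and *Myh7* (ENSMUSG00000053093, chr14:54970684-54994626) are neighbours on the minus strand of chromosome 14, with 3756 bases between the 3′ end of *Myh7* and the 5′ end of *Myh6*. They are close paralogs, so reads that fit both could be split between them or dropped. From the opposite strand, 4 genes of the matrices overlap *Myh7*, which was at 4262, 4613, 4344 and 3431 CPM in compact cells. There *Gm31251*, antisense over 12209 bases of it, was at 14.9, 20.3, 24.4 and 11.6 CPM and *Mhrt*, antisense over 3666 bases, at 16.6, 27.7, 40.4 and 18.3 CPM. *Gm17428*, over 93 bases, was at 13.2, 14.7, 12.1 and 7.18 CPM and *Gm29015*, over 331 bases, at 0, 0, 0 and 0.171 CPM. Antisense gene models also overlap *Myh6*, *Myl4* and *Ttn*, and protein-coding genes overlap *Myl2* (*Ccdc63*) and *Myl3* (*Pth1r*) from the opposite strand, and the strand setting of the counting is not given in the sources used here. *Myl7* (chr11:5896637-5898782) and *Myl4* (chr11:104550663-104595753) are on chromosome 11, *Mybpc3* (chr2:91118144-91136516) and *Ttn* (chr2:76703980-76982547) on chromosome 2, *Myl2* (chr5:122100951-122113472) on chromosome 5 and *Myl3* (chr9:110741861-110769798) on chromosome 9.

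The promoters of *Myh6*, *Myh7*, *Myl3* and *Myl7* are shown because between compact and *Sln*-rich cells *Myh6* and *Myl7* rose while *Myh7* and *Myl3* fell, as described further on. Of the 8 members, 8 had a row in the RefSeq promoter table, 7 of them within 100 bases of a GENCODE start. Each sequence is the 250 bases before the RefSeq start (GRCm38.p6), 5′ to 3′ on the strand of the gene: chr14:54966608-54966857 and chr14:54994627-54994876 on the minus strand, chr9:110763428-110763677 on the plus strand and chr11:5898783-5899032 on the minus strand. Capitals mark matches on either strand to 5 of the 6 motifs searched. The M-CAT motif, the core of binding sites for TEAD factors, was searched as the letters CATTCC. The site of the GATA factors, which act widely in the heart, was searched in a single form, AGATAA. The TATA box, where it occurs in a promoter, was searched as TATAAA. The CArG box of serum response factor and the MEF2 site were searched as well. The E-box was searched as CANNTG and is left in lower case, and 66.2% of all promoters of this length held it.

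Myh6: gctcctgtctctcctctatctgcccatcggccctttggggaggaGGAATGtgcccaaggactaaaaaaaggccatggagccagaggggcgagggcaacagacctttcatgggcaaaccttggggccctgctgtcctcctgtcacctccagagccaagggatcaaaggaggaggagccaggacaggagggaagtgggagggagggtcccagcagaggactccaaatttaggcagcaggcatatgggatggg

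Myh7: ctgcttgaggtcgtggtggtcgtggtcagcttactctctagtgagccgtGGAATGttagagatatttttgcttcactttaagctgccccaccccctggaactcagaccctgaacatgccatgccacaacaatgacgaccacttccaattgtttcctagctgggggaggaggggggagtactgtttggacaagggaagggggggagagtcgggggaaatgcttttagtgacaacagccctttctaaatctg

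Myl3: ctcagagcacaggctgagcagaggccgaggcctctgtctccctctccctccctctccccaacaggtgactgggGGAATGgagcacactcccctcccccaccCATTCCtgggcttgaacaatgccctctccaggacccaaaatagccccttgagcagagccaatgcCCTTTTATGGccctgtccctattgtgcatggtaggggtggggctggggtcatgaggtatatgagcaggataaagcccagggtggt

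Myl7: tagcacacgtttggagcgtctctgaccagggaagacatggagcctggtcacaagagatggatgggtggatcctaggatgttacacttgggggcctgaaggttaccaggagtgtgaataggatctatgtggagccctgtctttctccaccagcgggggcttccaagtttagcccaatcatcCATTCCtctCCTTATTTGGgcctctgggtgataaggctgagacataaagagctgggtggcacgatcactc

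An M-CAT match stood in all 4, at positions -206 to -201 of *Myh6*, -201 to -196 of *Myh7*, -177 to -172 and -149 to -144 of *Myl3*, and -70 to -65 of *Myl7*, counted back from the start. Of 32817 mouse promoters of the same length, 12.6% held that match. Among the promoters not printed, that of *Myl4*, which also rose in *Sln*-rich cells, held no match to any motif searched. Those of *Mybpc3* and *Ttn* held no M-CAT match. The M-CAT match was thus present on both sides of the class pattern and absent from *Myl4*. A CArG box stood in *Myl3* (CCTTTTATGG, -85 to -76) and *Myl7* (CCTTATTTGG, -61 to -52), and in 1.47% of all promoters, so it was present on both sides of the class pattern. Neither heavy chain promoter held one in this window. No match to AGATAA or to the TATA or MEF2 motif was found in the 4 windows (shares of all promoters 9.99%, 12.4% and 2.92%). MEF2 matches stood in the *Mybpc3* (-90 to -81) and *Ttn* (-166 to -157) promoters. Other forms of the GATA site were not searched, and TGATAA stands in the *Myl7* window and CTATCT, the reverse of AGATAG, in that of *Myh6*. Each of the 4 windows held an E-box, the common motif above. These are matches of letters only.

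Between compact cells and the *Sln*-rich and AVC classes, the heavy chains moved in opposite directions. *Myh6* was at 326, 344, 385 and 238 CPM in compact cells and at 4741, 4715, 5875 and 4289 CPM in *Sln*-rich cells, with 2484, 2056, 3344 and 2626 CPM in AVC, 929, 1203, 1187 and 851 CPM in trabecular and 517, 627, 570.1 and 463 CPM in cycling cells. All 4 libraries kept the order *Sln*-rich, AVC, trabecular, cycling, compact, with no overlap between neighbours. Against compact cells in the same libraries (edgeR's quasi-likelihood test with library as a term, Benjamini-Hochberg adjustment over all genes), *Myh6* was higher by a log2 fold change of 3.77 (SE 0.074, adjusted p = 1.01e-13) in *Sln*-rich, 2.82 (SE 0.10) in AVC, 1.79 (SE 0.062) in trabecular and 0.79 (SE 0.047) in cycling cells. *Myh7* was at 5714, 6319, 4761 and 3701 CPM in trabecular, 4262, 4613, 4344 and 3431 CPM in compact and 4013, 4551, 3939 and 2971 CPM in cycling cells. It was lower in AVC cells (3202, 4706, 2452 and 2357 CPM, except that control replicate 2 reached its compact level) and lowest in *Sln*-rich cells (780.1, 2097, 329 and 583 CPM). The difference from compact cells was -2.61 (SE 0.28, adjusted p = 4.06e-06) in *Sln*-rich, -0.63 (SE 0.11) in AVC and 0.38 (SE 0.054) in trabecular cells. Both heavy chains therefore rose in trabecular cells, with the larger fitted fold change for *Myh6*.

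Of the 8 members, 7 passed the adjusted threshold of 0.05 between trabecular and compact cells, 8 between cycling and compact cells, 6 between *Sln*-rich and compact cells and 6 between AVC and compact cells. The shares of all tested genes that passed were 42.1%, 52.9%, 32.5% and 39.6%, so the sizes carry more than the calls in these contrasts.

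The ventricular light chains were the members most depleted outside the ventricular classes. *Myl2* was at 15514, 15422, 13343 and 14508 CPM in trabecular, 13097, 13439.5, 11153 and 12531 CPM in compact and 12442, 12497, 10685 and 11660.4 CPM in cycling cells. In AVC cells it fell to 5999, 6566, 3958 and 4705 CPM and in *Sln*-rich cells to 2077, 2400.5, 569 and 1041 CPM, with no overlap between these classes and the 3 others. The fitted differences from compact cells were -3.41 (SE 0.23, adjusted p = 4.56e-08) in *Sln*-rich and -1.46 (SE 0.093, adjusted p = 6.54e-10) in AVC cells. *Myl3* followed it, at 9601, 8759.8, 9596 and 12171 CPM in compact, 4748, 6057, 3146 and 4664 CPM in AVC and 1745, 2577, 709.6 and 1111 CPM in *Sln*-rich cells. Its difference from compact cells was -3.02 (SE 0.25) in *Sln*-rich and -1.33 (SE 0.13) in AVC cells. Trabecular cells had 9047, 8195, 9440 and 12467 CPM, and *Myl3* was the one member that did not pass there (0.053, SE 0.042, adjusted p = 0.337), whereas *Myl2* was higher by 0.32 (SE 0.039). In cycling cells both passed with small values, -0.16 (SE 0.021) for *Myl3* and -0.049 (SE 0.020) for *Myl2*. The *Myl2* call was lost without control replicate 1 (-0.048, adjusted p = 0.162), without control replicate 2 (-0.040, adjusted p = 0.217) and in DESeq2 (-0.038, adjusted p = 0.307).

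The atrial light chains were both highest in *Sln*-rich cells but parted in trabecular cells. *Myl7* was at 14185, 12797, 14531 and 15453 CPM in *Sln*-rich, 4541, 5698, 6493 and 6733 CPM in AVC and 2225, 2077, 2368 and 2189 CPM in compact cells. It was lower still in cycling (1149, 1288, 1328 and 1688 CPM) and trabecular cells (998, 1082, 930.1 and 1724 CPM), where only *Ets1* eKO replicate 2 came near the compact range. Its log2 fold changes against compact cells were 2.51 (SE 0.059, adjusted p = 7.92e-13) in *Sln*-rich, 1.19 (SE 0.091) in AVC, -0.68 (SE 0.055) in cycling and -0.85 (SE 0.10, adjusted p = 1.92e-07) in trabecular cells. *Myl4* was at 9691, 9152, 10305 and 12568 CPM in *Sln*-rich, 6102, 6093, 6387 and 9058 CPM in trabecular, 6235, 5770.4, 6437 and 6852 CPM in AVC, 3216, 3254, 2992 and 4237 CPM in cycling and 2741, 2269, 2291 and 2257 CPM in compact cells. It rose against compact cells by 1.95 (SE 0.080) in *Sln*-rich, 1.61 (SE 0.084, adjusted p = 2.25e-13) in trabecular, 1.21 (SE 0.081) in AVC and 0.55 (SE 0.062) in cycling cells. Trabecular cells thus had more of the atrial essential light chain and less of the atrial regulatory light chain than compact cells of the same library, in 4 of 4 libraries for each.

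*Mybpc3* and *Ttn* varied least. The class means of *Mybpc3* ran from 587 ± 79.4 CPM (SD, n = 4 libraries) in cycling to 784 ± 164 CPM in trabecular cells, and those of *Ttn* from 7501 ± 1005 CPM in compact to 9489 ± 1609 CPM in trabecular cells. The highest class mean was 1.26 times the lowest for *Ttn* and 1.34 times for *Mybpc3*, against 15.2 times for *Myh6* and 12.0 times for *Myl7*. Both rose in trabecular cells, *Ttn* by 0.43 (SE 0.046, adjusted p = 7.90e-08) and *Mybpc3* by 0.32 (SE 0.062, adjusted p = 2.21e-04). Neither passed in *Sln*-rich cells, at -0.0083 (SE 0.060) for *Ttn* and -0.053 (SE 0.086) for *Mybpc3*, or AVC cells, at -0.10 (SE 0.092) and 0.024 (SE 0.082). Scaling by total counts shifted the median of all genes by 0.17 in *Sln*-rich and 0.19 in AVC cells against compact cells, and by -0.11 in trabecular and -0.12 in cycling cells between genotypes, on the log2 scale. With it *Ttn* became 0.16 (adjusted p = 0.0325) in *Sln*-rich cells and *Mybpc3* 0.22 (adjusted p = 0.0137) in AVC cells. The 8 members together took 4.26% ± 0.0815 (SD, n = 4) of all UMIs in *Sln*-rich, 4.90% ± 0.153 in trabecular, 3.98% ± 0.0664 in compact, 3.81% ± 0.0883 in cycling and 3.68% ± 0.328 in AVC cells, so that the classes differed far more in which chains they held than in their sum.

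**Figure D1:**
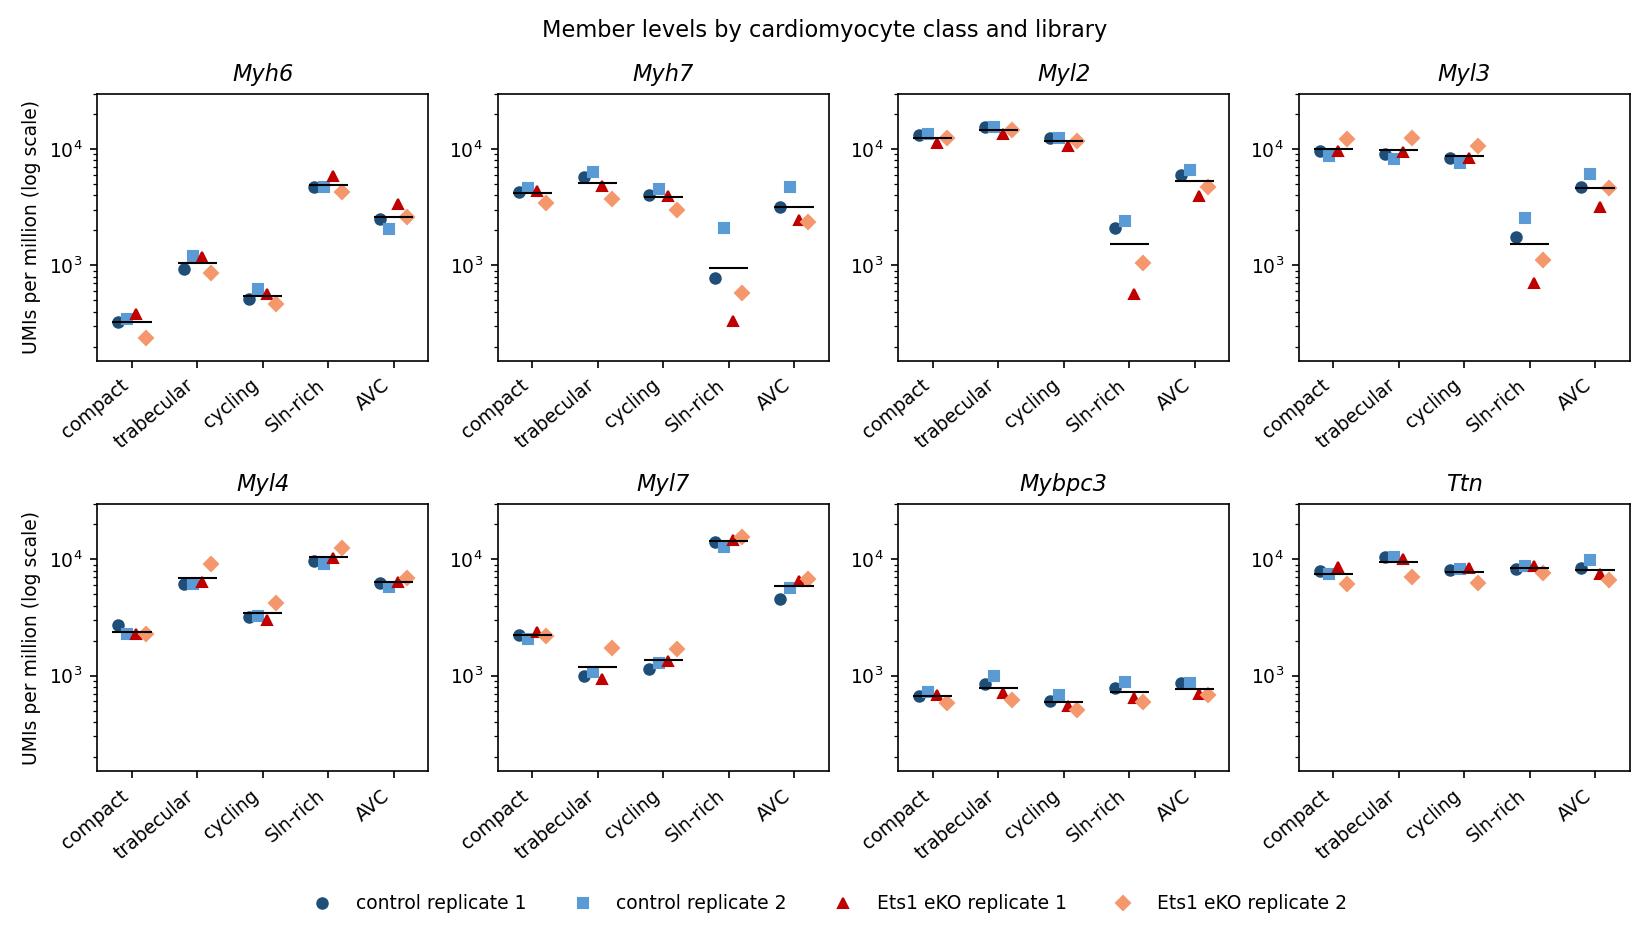
Level of each member (CPM, log axis) in 5 classes of cardiomyocytes (AVC, atrioventricular canal), with 1 point per library and a line at the mean of the 4 libraries. *Myh6*, *Myl4* and *Myl7* peak in *Sln*-rich cells, *Myh7*, *Myl2* and *Myl3* are lowest there, and *Mybpc3* and *Ttn* stay nearly level, with *Ttn* means between 7501 and 9489 CPM.

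Expressed as chamber isoform percentages, the classes fell in one order for the heavy chains and the essential light chains and in another for the regulatory light chains. The percentages are shares of UMIs, not adjusted for capture of each transcript, so a percentage is compared with that of other classes or libraries and is not a ratio of molecules. *Myh7* made up 92.9, 93.1, 91.9 and 93.5% of *Myh6* and *Myh7* UMIs in compact, 88.6, 87.9, 87.4 and 86.5% in cycling, 86.0, 84.0, 80.0 and 81.3% in trabecular, 56.3, 69.6, 42.3 and 47.3% in AVC and 14.1, 30.8, 5.31 and 12.0% in *Sln*-rich cells. *Myl2* made up 94.0, 93.4, 93.5 and 89.4% of *Myl2* and *Myl7* UMIs in trabecular, 91.5, 90.7, 88.9 and 87.4% in cycling, 85.5, 86.6, 82.5 and 85.1% in compact, 56.9, 53.5, 37.9 and 41.1% in AVC and 12.8, 15.8, 3.77 and 6.31% in *Sln*-rich cells. Compact cells were thus highest of all classes for the ventricular heavy chain share but below trabecular and cycling cells for the ventricular regulatory light chain share, in each of the 4 libraries. *Myl3* made up 77.8, 79.4, 80.7 and 84.4% of *Myl3* and *Myl4* UMIs in compact, 72.4, 69.8, 73.6 and 71.6% in cycling, 59.7, 57.4, 59.6 and 57.9% in trabecular, 43.2, 51.2, 32.8 and 40.5% in AVC and 15.3, 22.0, 6.44 and 8.12% in *Sln*-rich cells. Trabecular cells differed from compact cells by -9.99 ± 2.51 percentage points (SD of the difference, n = 4 libraries) for the heavy chains, 7.64 ± 2.84 for the regulatory and -21.9 ± 3.46 for the essential light chains. All 12 differences from compact cells had the same sign in 4 of 4 libraries, and each gave p = 0.125 (two-sided exact sign-flip permutation test), the smallest that 4 libraries allow.

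**Figure D2:**
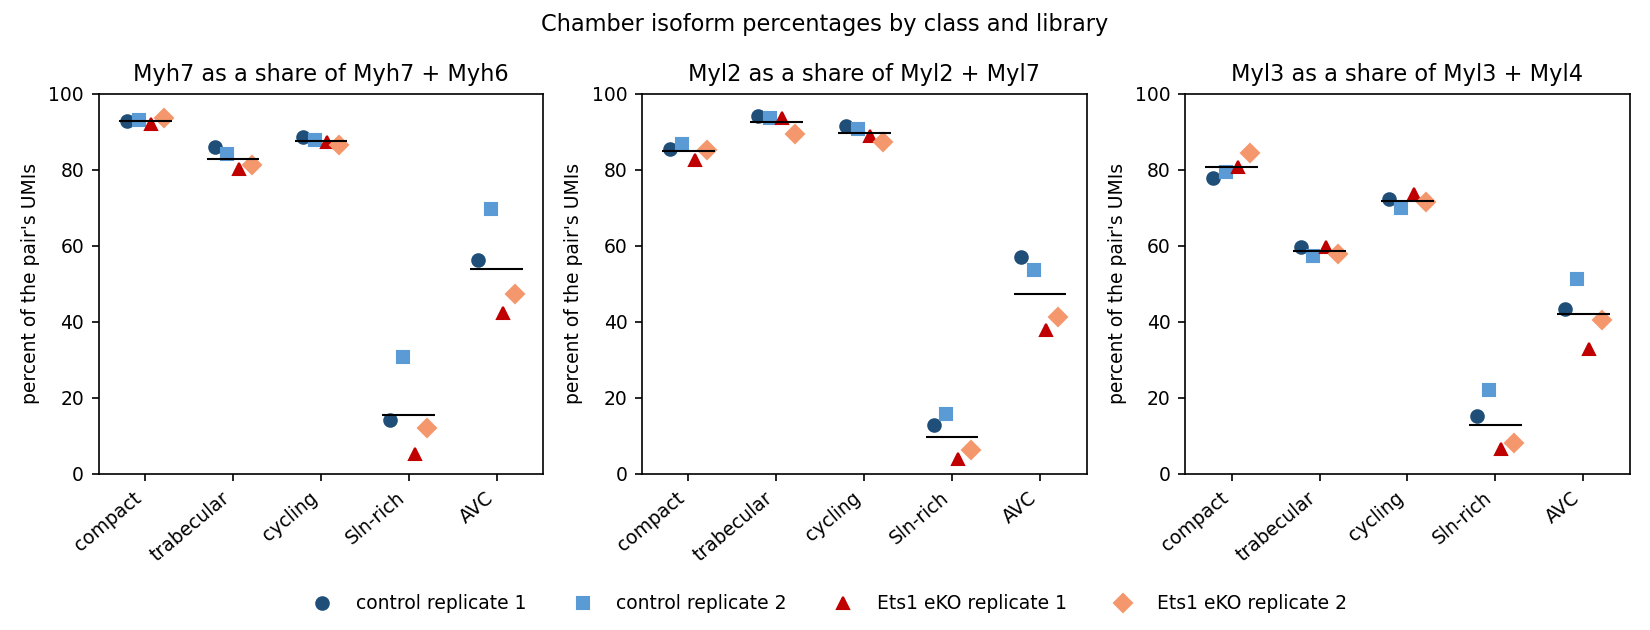
Share of the ventricular isoform among the UMIs of each chamber pair (percent), by class, with 1 point per library and a line at the mean of the 4 libraries. Compact cells are highest in the *Myh7* and *Myl3* panels and below trabecular cells in the *Myl2* panel, and both *Ets1* eKO libraries lie below both controls in AVC and *Sln*-rich cells in all 3 panels.

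In single cells the compact class was uneven for *Myl7*. The median compact cell had 951, 841, 1091 and 1021 CPM of *Myl7*, while the 90th percentile of its cells was at 6189, 6478, 6464 and 5431 CPM, above the 2188, 2576, 1985 and 3614 CPM of trabecular cells. Among compact cells with at least 10 UMIs of the regulatory pair, 4.36, 2.73, 3.18 and 2.71% had more UMIs of *Myl7* than of *Myl2*, a cutoff used to compare classes, against 0, 0, 0 and 0.155% of trabecular and 0.500, 0.614, 1.20 and 0.759% of cycling cells. After thinning each cell to 2000 UMIs the compact shares were 4.83, 2.47, 2.55 and 2.59%. AVC cells were split most evenly, with more UMIs of *Myl7* than of *Myl2* in 45.8, 42.3, 56.3 and 54.9% of cells and 42.4, 39.0, 56.7 and 55.8% after thinning. In control replicate 1 the 10th and 90th percentiles of the AVC cells were 8.24% and 95.9% *Myl2*, so a percentage near the middle averages over unlike cells.

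No member passed the adjusted threshold between *Ets1* eKO and control in any of the 5 classes (edgeR's quasi-likelihood test on UMIs summed per library, 40 tests of members). The shares of all tested genes that passed were 0.0162% in compact, 0.0617% in trabecular, 0.00726% in cycling, 0% in *Sln*-rich and 0.57% in AVC cells. In the *Sln*-rich fit, where 0 of 7751 genes passed, 945.0 had an unadjusted p below 0.05, and DESeq2 called 25 genes.

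In compact cells, 7 of the 8 members overlapped between genotypes. With 2 libraries against 2, absence of overlap was common: both *Ets1* eKO libraries lay above or below both controls for 42.5% of tested genes in compact cells (1 member), 48.4% in trabecular (6 members), 48.2% in cycling (4), 43.7% in *Sln*-rich (6) and 40.7% in AVC cells (8). More genes lay below both controls than above both in each class. These shares were 30.9% and 11.6% in compact, 33.5% and 14.9% in trabecular and 37.3% and 10.9% in cycling cells. In *Sln*-rich cells they were 24.1% and 19.6%, and in AVC cells 21.7% and 19%. Absence of overlap is therefore given below as a description. *Myl3* had the largest fitted difference, at 9601 and 8759.8 CPM in control libraries against 9596 and 12171 CPM in *Ets1* eKO libraries, a log2 value of 0.34 (SE 0.20, adjusted p = 0.648), and only *Ets1* eKO replicate 2 stood above both controls. *Myl2*, the member without overlap, was at 13097 and 13439.5 CPM in control libraries against 11153 and 12531 CPM in *Ets1* eKO libraries, with both *Ets1* eKO libraries below both controls and a fitted difference of -0.073 (SE 0.20, adjusted p = 0.914). The fitted difference was -0.10 (SE 0.19) for *Myh7*, -0.015 (SE 0.20) for *Myh6*, 0.17 (SE 0.17) for *Myl7* and 0.017 (SE 0.21) for *Ttn*. *Ets1* eKO replicate 2 had the lowest *Ttn* (6127 CPM) and the lowest *Myh6* (238 CPM) of the 4 libraries, while *Ets1* eKO replicate 1 had the highest of both (8499.9 and 385 CPM). The *Ets1* eKO libraries thus lay on either side of the controls for these genes.

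In trabecular cells the values were further apart, and the libraries of *Ets1* eKO were unlike each other. *Myh7* was at 5714 and 6319 CPM in control libraries against 4761 and 3701 CPM in *Ets1* eKO libraries, lower in both *Ets1* eKO libraries than in both controls, with a fitted difference of -0.41 (SE 0.21, adjusted p = 0.377). *Mybpc3* was at 839 and 985 CPM in control libraries against 702 and 611 CPM in *Ets1* eKO libraries, also without overlap, with -0.37 (SE 0.19, adjusted p = 0.385). *Myl3* (9047 and 8195 CPM in control libraries against 9440 and 12467 CPM in *Ets1* eKO libraries) and *Myl4* (6102 and 6093 CPM in control libraries against 6387 and 9058 CPM in *Ets1* eKO libraries) were above both controls in both *Ets1* eKO libraries, with 0.46 (SE 0.22) and 0.46 (SE 0.23). *Ets1* eKO replicate 2 stood apart for *Myl4* and *Myl7*, with *Myl7* at 1724 CPM against 930.1 CPM in replicate 1 and 998 and 1082 CPM in the controls. The fitted difference of *Myl7* was 0.47 (SE 0.27, adjusted p = 0.41 in edgeR). Over the alternatives tried it ranged from -0.098 to 0.87, that of *Myl4* from 0.13 to 0.72 and that of *Myl3* from 0.19 to 0.68. When *Ets1* eKO replicate 1 was left out, so that the lone *Ets1* eKO library was assumed to vary like the controls, 6 members passed: *Myl7* (0.87, adjusted p = 7.68e-06), *Myl4* (0.72), *Myl3* (0.68), *Myh7* (-0.56), *Mybpc3* (-0.43) and *Ttn* (-0.41). Under the same setting 1822 of all genes passed, and the *Ets1* eKO library that remained is the shallowest of the 4. In cycling cells, where *Myl7* (0.43, SE 0.19, adjusted p = 0.47) and *Myl3* (0.38, SE 0.20, adjusted p = 0.476) had the largest fitted differences, 4 members (*Myl3*, *Myl4*, *Myl7* and *Myh7*) and 2409 genes passed under this setting, and in compact cells 1 member (*Myl3*) and 558 genes. The difference of the *Ets1* eKO effect between trabecular and compact cells, tested as a class by condition term, passed for 0.085% of genes and for no member. The nearest was *Myh7* at -0.30 (SE 0.071, adjusted p = 0.108). It passed without *Ets1* eKO replicate 1 (-0.30, adjusted p = 0.0403) and without *Ets1* eKO replicate 2 (-0.32, adjusted p = 7.73e-05). *Myl7* passed in both of these as well but with opposite signs, at 0.74 and -0.31, *Myl4* passed without *Ets1* eKO replicate 1 (0.75) and without control replicate 2 (0.62), and *Ttn* (-0.22) and *Mybpc3* (-0.34) passed without *Ets1* eKO replicate 2. Of all genes, 33 of 11842 passed without *Ets1* eKO replicate 1, 72 of 11740 without *Ets1* eKO replicate 2 and 43 of 11891 without control replicate 2.

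**Figure D3:**
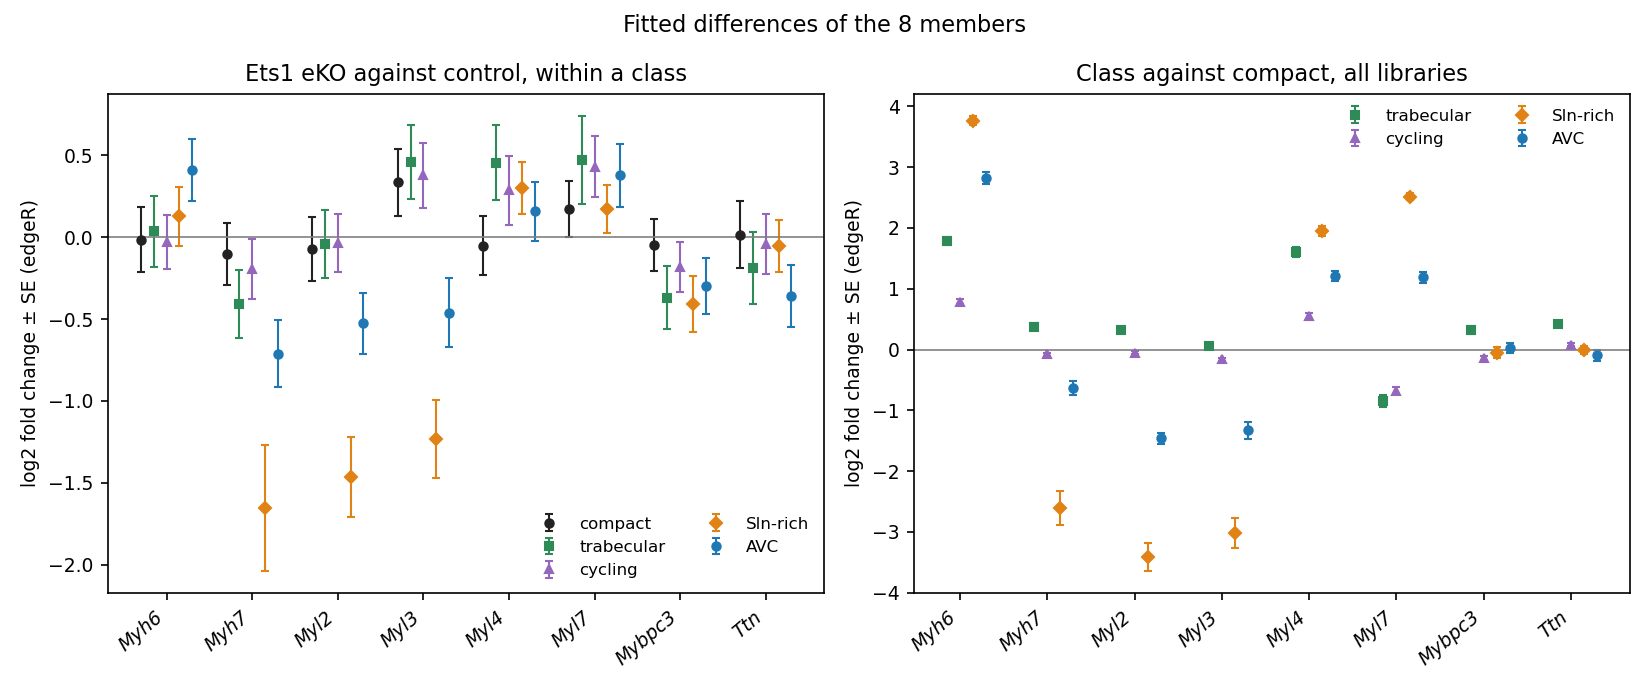
Log2 fold changes fitted by edgeR (points) with their SE (bars) for the 8 members: *Ets1* eKO against control within each class on the left, and each class against compact cells on the right, on different vertical scales. On the left, *Myh7*, *Myl2* and *Myl3* in *Sln*-rich cells (-1.65, -1.46 and -1.23) lie apart from the other values, and on the right *Myh6* in *Sln*-rich cells is the highest (3.77).

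The *Sln*-rich class held the largest genotype differences of the members, all in the ventricular isoforms. *Myl2* was at 2077 and 2400.5 CPM in control libraries against 569 and 1041 CPM in *Ets1* eKO libraries, *Myl3* at 1745 and 2577 CPM in control libraries against 709.6 and 1111 CPM in *Ets1* eKO libraries and *Myh7* at 780.1 and 2097 CPM in control libraries against 329 and 583 CPM in *Ets1* eKO libraries, and for each both *Ets1* eKO libraries were below both controls. The log2 fold changes were -1.46 (SE 0.25, adjusted p = 0.0663) for *Myl2*, -1.23 (SE 0.24, adjusted p = 0.0716) for *Myl3* and -1.65 (SE 0.38, adjusted p = 0.111) for *Myh7*, short of the threshold. Each of the 3 passed when control replicate 1, *Ets1* eKO replicate 1 or *Ets1* eKO replicate 2 was left out (*Myl2* at -1.55, -1.10 and -1.94), and none passed without control replicate 2 (*Myl2* at -1.36, adjusted p = 0.435). Of all genes, 142 of 8684, 200 of 8123 and 159 of 8775 passed in those 3 fits, against 0 of 7751 with all libraries and 0 of 8096 without control replicate 2. With 1 library left out, *Myh7* went to -0.77 without control replicate 2 and -2.18 without control replicate 1. With doublets kept the values were -0.26 for *Myl2*, -0.20 for *Myl3* and -0.66 for *Myh7*, and with cells thinned to 2000 UMIs -0.20, -0.50 and -1.21. The atrial partners in the same cells did not pass either: *Myh6* was at 0.13 (SE 0.18), *Myl7* at 0.17 (SE 0.15) and *Myl4* at 0.30 (SE 0.16) on the log2 scale. *Myl4* passed without *Ets1* eKO replicate 1, upward (0.42, adjusted p = 0.0186). *Ttn* was at 8302 and 8811 CPM in control libraries against 8697 and 7548 CPM in *Ets1* eKO libraries, with a fitted difference of -0.053 (SE 0.16), and *Mybpc3* had -0.41 (SE 0.17). The *Myl2* share of its pair was 14.3% ± 2.14 (SD, n = 2) in control and 5.04% ± 1.80 in *Ets1* eKO, a difference of -9.24 percentage points that was -2.74 with doublets kept and -3.62 with thinned cells. The *Myh7* share was 22.5% ± 11.8 and 8.64% ± 4.71, a difference of -13.8 percentage points that was -5.49 without control replicate 2 and -22.1 without control replicate 1, and -5.59 with doublets kept, where the groups overlapped. The *Myl3* share was 18.6% ± 4.75 and 7.28% ± 1.19, a difference of -11.3 points that was -4.47 with doublets kept. Each of the 3 gave p = 0.333 in a two-sided exact permutation test, the smallest that 2 against 2 libraries allow. These shares pool unlike cells. Among *Sln*-rich cells with at least 10 UMIs of the heavy chain pair, the median cell had 2.38, 2.63, 0 and 0% *Myh7*, and the 90th percentile was 40.7, 93.9, 7.14 and 22.7%. For *Myl3* the median was 5.68, 3.26, 1.37 and 2.17% and the 90th percentile 29.8, 53.9, 12.9 and 15.9%, and for *Myl2* 6.10, 3.36, 0.932 and 1.70% and 37.8, 46.8, 12.2 and 11.6%. In each library the pooled share was thus above that of the median cell, and a minority of cells with high ventricular shares weighed on it, most of all in control replicate 2 for *Myh7*.

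Against the compact cells of the same libraries, in a class by condition test added after these values were seen, the *Ets1* eKO effect in *Sln*-rich cells differed for *Myl3* by -1.58 (SE 0.16, adjusted p = 1.51e-05), *Myl2* by -1.45 (SE 0.15, adjusted p = 1.51e-05) and *Myh7* by -1.48 (SE 0.30, adjusted p = 0.0233), and for none of the other 5 members. The share of all tested genes that passed was 0.423%. The *Myh7* call was lost without control replicate 2 (-0.73, adjusted p = 0.214), the library in which *Sln*-rich cells had the most *Myh7*, and *Myl2* and *Myl3* passed with each library left out. The fits with a library left out have 1 residual degree of freedom. The result rested on which cells were counted. With doublets kept, the class held 55, 75, 116 and 109 cells, and *Myl2* was at 2337, 2111, 1498 and 2115 CPM. The difference of the effect was then -0.21 (adjusted p = 0.729) for *Myl2*, -0.47 (adjusted p = 0.506) for *Myh7* and -0.56 (adjusted p = 0.00145) for *Myl3*. With cells thinned to 2000 UMIs before gating, where a single *Sln* UMI opens the gate, *Myl2* differed by -0.070 (adjusted p = 0.979), *Myl3* by -0.81 (adjusted p = 0.00396) and *Myh7* by -1.03 (adjusted p = 0.02). With every gate cutoff doubled, the differences were -1.59, -1.87 and -1.75, and all 3 passed.

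**Figure D4:**
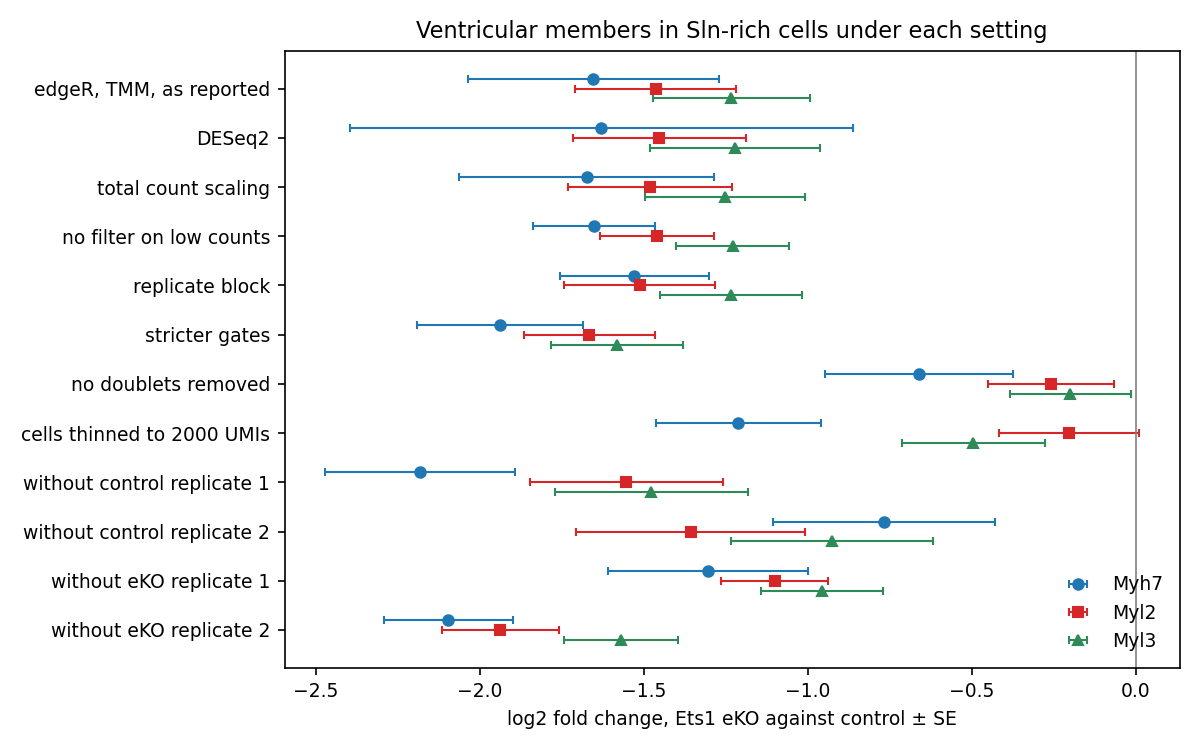
Log2 fold change of *Myh7*, *Myl2* and *Myl3* in *Sln*-rich cells, *Ets1* eKO against control (points) with SE (bars), as reported (top row) and under each alternative. *Myl2* lies at -1.46 as reported, at -0.26 with doublets kept and at -0.20 with thinned cells, and at -1.10 or below under every other setting.

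Background RNA and the makeup of the class were measured beside this result. After thinning to 2000 UMIs, 61.2, 60.7, 34.3 and 46.5% of *Sln*-rich cells had a *Myl2* UMI, against 41.2, 26.0, 36.9 and 45.3% of immune cells and 42.4, 22.4, 29.0 and 40.6% of endothelial cells, which should lack the gene. Without thinning the shares were 100, 91.8, 73.7 and 75.2% of *Sln*-rich and 89.0, 58.4, 67.5 and 71.4% of immune cells. At equal depth the *Sln*-rich share was thus above that background in the controls and close to it in *Ets1* eKO. The summed *Myl2* level was above that of immune and endothelial cells in all 4 libraries. In *Ets1* eKO it was 569 and 1041 CPM in *Sln*-rich cells, against 191 and 324 CPM in immune and 163 and 243 CPM in endothelial cells. The median *Sln*-rich cell had 743, 373, 168 and 235 CPM of *Myl2*, and the median immune cell 258, 134, 149 and 268 CPM. The AVC gate genes summed to 605 and 560.1 CPM in control libraries against 322 and 218 CPM in *Ets1* eKO libraries in *Sln*-rich cells, and *Rspo3* alone was at 481, 446, 204 and 127 CPM. The 5 check genes of the class (*Nr2f1*, *Nr2f2*, *Stard10*, *Mybphl* and *Kcnj3*) summed to 567 and 573 CPM in control libraries against 767 and 893 CPM in *Ets1* eKO libraries, and all 5 had UMIs in each library. The cell cycle genes of the gate summed to 40.2 and 223 CPM in control libraries against 230.1 and 1266 CPM in *Ets1* eKO libraries, with 5 of 12 at 0 in control replicate 1 and none at 0 in the others. The part of these in the result was not tested. *Hey2*, the compact factor, was near 0 in all 4 libraries (0, 1.38, 0 and 5.0 CPM).

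In AVC cells the fitted differences of the ventricular isoforms were also below 0, none of them past the threshold, and that of *Myl3* was above 0 once cells were thinned. *Myh7* was at 3202 and 4706 CPM in control libraries against 2452 and 2357 CPM in *Ets1* eKO libraries (-0.71, SE 0.20, adjusted p = 0.163), and *Myl2* at 5999 and 6566 CPM in control libraries against 3958 and 4705 CPM in *Ets1* eKO libraries (-0.53, SE 0.19, adjusted p = 0.291). *Myl3* was at 4748 and 6057 CPM in control libraries against 3146 and 4664 CPM in *Ets1* eKO libraries (-0.46, SE 0.21, adjusted p = 0.44), with *Ets1* eKO replicate 2 just below control replicate 1. *Myh6* was above both controls in both *Ets1* eKO libraries, at 2484 and 2056 CPM in control libraries against 3344 and 2626 CPM in *Ets1* eKO libraries (0.41, SE 0.19, adjusted p = 0.439), as was *Myl7*, at 4541 and 5698 CPM in control libraries against 6493 and 6733 CPM in *Ets1* eKO libraries (0.38, SE 0.19, adjusted p = 0.501). Without control replicate 1 *Myh7* passed (-0.98, adjusted p = 0.025, with 119 of 8452 genes). The *Myh7* share of the heavy chains was 63.0% ± 9.39 in control and 44.8% ± 3.53 in *Ets1* eKO (SD, n = 2 each, exact permutation p = 0.333), and the *Myl2* share of its pair 55.2% ± 2.39 and 39.5% ± 2.31. The *Myh7* difference of -18.2 percentage points was -11.5 without control replicate 2 and -24.8 without control replicate 1. That of the *Myl3* share, -10.6, was -6.57 without control replicate 2 and -6.72 without *Ets1* eKO replicate 1. With cells thinned to 2000 UMIs before gating, where a single UMI of a gate gene opens the AVC gate, the class held 210, 229, 129 and 211 cells. The *Myh7* and *Myl2* differences then went from -18.2 to -8.08 and from -15.7 to -2.08 percentage points, and the genotypes overlapped for *Myl2*. The part of the changed class in this was not tested. With thinned cells the fitted difference of *Myl3* was 0.038 on the log2 scale, the difference in its share of the pair went from -10.6 to 1.32 percentage points, and *Ets1* eKO replicate 2 (7448 CPM) was above both controls (6583 and 6338 CPM). Against compact cells, the effect differed for *Myl3* (-0.79, SE 0.19, adjusted p = 0.0251), with a background of 0.583% of genes. This call was lost without either *Ets1* eKO library, at -0.70 (adjusted p = 0.758) without replicate 1 and -0.89 (adjusted p = 0.464) without replicate 2. It was also lost with doublets kept (-0.73, adjusted p = 0.0592), with doubled cutoffs (-0.80, adjusted p = 0.204) and with thinned cells (-0.25, adjusted p = 0.346). Without control replicate 1 another 4 members (*Myh6*, *Myh7*, *Myl2* and *Ttn*) passed and without control replicate 2 *Myl7* did, where 122 of 11174 and 68 of 11496 genes passed (these fits have 1 residual degree of freedom). *Ttn* was at 8419 and 9771 CPM in control libraries against 7505 and 6575 CPM in *Ets1* eKO libraries (-0.36, SE 0.19, adjusted p = 0.527). The AVC check genes summed to 562 and 459 CPM in control libraries against 1101 and 807 CPM in *Ets1* eKO libraries and the *Sln*-rich check genes to 225 and 143 CPM in control libraries against 251 and 302 CPM in *Ets1* eKO libraries in these cells. Their part in the result was not tested.

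The other sarcomere genes, a list of 33 (12 of the thin filament, 9 of the Z-disc, 3 of the M-band and giant proteins, 9 other myosin genes), held called genes in each of the 4 contrasts with compact cells and in 1 of the 5 contrasts between genotypes. The list includes *Tnnt2*, *Tnnc1*, *Actc1*, *Tnni1*, *Tpm1*, *Tnni3* and *Nexn*, whose sum set the cardiomyocyte gate of all classes. The counts and medians below thus include genes that selected the cells. Between *Ets1* eKO and control none of them passed in compact, trabecular, cycling or *Sln*-rich cells, and their median change was 0.061, 0.039, 0.089 and -0.069, against -0.031, -0.0029, -0.033 and -0.23 for the 8 members and 0.015 or less for all genes. In AVC cells 1 passed, *Acta1* (skeletal alpha-actin), which fell by 2.34 (SE 0.46, adjusted p = 0.0221) from 111 and 399 CPM to 28.9 and 75.2 CPM. The *Acta1* call was lost without *Ets1* eKO replicate 1 (-1.80, adjusted p = 0.388), without *Ets1* eKO replicate 2 (-3.17, adjusted p = 0.0837) and in DESeq2 (-2.29, adjusted p = 0.999), and without control replicate 2 the value was -1.08 (adjusted p = 0.0261). Against compact cells, and leaving out only *Tnnt1*, which set the compact and trabecular gates, 21 of 32 rose and 6 fell in trabecular cells, 6 and 14 in cycling, 15 and 10 in *Sln*-rich and 13 and 10 in AVC cells, with the backgrounds given above. *Myl1*, an essential light chain known from fast skeletal and embryonic muscle, led each of these, at 5.84 (SE 0.17, adjusted p = 1.07e-11) in *Sln*-rich, 4.78 (SE 0.23, adjusted p = 1.19e-11) in AVC, 4.29 (SE 0.13, adjusted p = 8.94e-18) in trabecular and 1.74 (SE 0.12, adjusted p = 8.52e-12) in cycling cells. *Mybphl*, a relative of *Mybpc3* known from the atria and conduction system, rose by 4.93 (SE 0.27, adjusted p = 4.24e-09) in *Sln*-rich cells, and *Myom2*, an M-band protein, by 3.44 (SE 0.39, adjusted p = 7.39e-06). In trabecular cells *Tpm2*, a tropomyosin, followed *Myl1* at 1.28 (SE 0.071, adjusted p = 8.80e-13), in AVC cells *Myom2* at 2.89 (SE 0.33, adjusted p = 1.11e-06) and *Mybphl* at 2.44 (SE 0.37, adjusted p = 3.65e-05), and in cycling cells *Acta1* at 0.95 (SE 0.081, adjusted p = 8.47e-10) and *Myom2* at -0.89 (SE 0.26, adjusted p = 0.00714). The *Myom2* call in cycling cells was lost without control replicate 1 (-0.78, adjusted p = 0.0713). The effect of *Ets1* eKO differed from that in compact cells, among the genes that set no gate, for *Myl9*, a smooth muscle regulatory light chain, by 0.58 (SE 0.12, adjusted p = 0.0225) in *Sln*-rich cells. This call was lost without control replicate 1 (0.55, adjusted p = 0.159). In AVC cells it differed for *Acta1* by -2.34 (SE 0.39, adjusted p = 4.42e-04) and for *Myl1* by 1.28 (SE 0.30, adjusted p = 0.0283), the second of which was lost without control replicate 2 (0.88, adjusted p = 0.215) and without *Ets1* eKO replicate 1 (0.54, adjusted p = 0.737).

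Over the 20 sums of 5 classes and 4 libraries, the genes whose log2(CPM + 1) was most like a member's are given with Pearson's r, as a description, since classes of 1 library share its depth. *Myh6* was most like *Tbx5* (0.981), *Gnao1* (0.973), *Spon1* (0.973), *Timp3* (0.972) and *Kcnj5* (0.964), and *Myh7* was most like *Prdm16* (0.967), *Pln* (0.948), *Myl2* (0.945), *Cxcl12* (0.938) and *Hopx* (0.936). *Myl2* was closest to its partner: *Myl3* (0.982), *Hopx* (0.968), *Prdm16* (0.963), *Retreg1* (0.949) and *Myh7* (0.945). *Myl7* was most like *Sox5* (0.969), *Sln* (0.967), *Rd3* (0.966), *Cav1* (0.965) and *Shisa6* (0.959), of which *Sln* set a gate. *Myl2* and *Myh7* thus appeared in each other's lists, and *Myh6* and *Myl7* shared none of their 5, among 9643 genes compared.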

How the data were processed

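scRNA-seq libraries of 4 pooled samples (2 control, 2 *Ets1* eKO) were analysed. The authors deposited raw UMI counts per gene and barcode, made with Cell Ranger 7.1.0 on mm10 (Seurat 4.3.0 is also in the submitters' notes), with called cells only. Whether intron reads were counted is not given in the sources used here. Only these count matrices were used, and no deposited comparison.

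The 8 members and all gene lists were chosen with earlier results of these data known. A barcode was kept if it held between 200 and 7000 genes and no more than 20% of its UMIs came from mitochondrial, 35% from ribosomal and 2% from hemoglobin genes. Doublets were then scored by the share of simulated doublets (2 made for each cell) among 90 neighbours, and the top scorers were removed in a number that grew with the size of the library. Of 11340, 7235, 9243 and 13851 cells this removed 1029, 419, 683 and 1535. Cardiomyocytes had at least 2000 UMIs, at least 150 per 10000 UMIs from *Tnnt2*, *Tnnc1*, *Actc1*, *Tnni1*, *Tpm1*, *Tnni3* and *Nexn*, and at most 5 from each list of another lineage. In the order tested, *Sln*-rich cells had at least 4 *Sln*, AVC cells at least 4 of their gate genes, cycling cells at least 16 of theirs, compact cells at least 16 *Tnnt1* with *Nppa* below 8, and trabecular cells at least 32 *Nppa* with *Tnnt1* below 8, all per 10000 UMIs. These cutoffs were set on the gate genes alone.

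Counts were summed per library and class, since cells of a library are not replicates, and tested with edgeR 4.0.16 in R 4.3.3 (TMM, filterByExpr, quasi-likelihood test, Benjamini-Hochberg adjustment over all genes, threshold 0.05). Contrasts with compact cells had library as a term. Class by condition terms were planned for trabecular cells and added for *Sln*-rich and AVC cells. Isoform percentages were compared by exact permutation over libraries (15 tests) and by sign-flip over 4 libraries (12 tests). The spread between libraries set the SEs and p-values of these tests, and the numbers of cells and their UMIs limited each sum. No intervals over cells are given. In the small classes the median was 9460, 10981, 9861 and 5674 UMIs per *Sln*-rich cell. For AVC cells it was 9464, 10867.5, 8932 and 5181.5 UMIs. The edgeR step was checked on simulated counts.

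Genes were named by a rule: the members, *Ets1*, gate and check genes, the 3 other sarcomere genes with the largest change per comparison (values are printed for those past the threshold, and 1 is not reported here), and the 5 genes most like each of 4 members. *Mhrt* was added as an antisense neighbour. The alternatives tried were scaling by total counts, DESeq2 1.42.0, testing without the filter on low counts, the replicate number as a block, no library term, each library left out, no doublets removed, doubled gate cutoffs and cells thinned to 2000 UMIs before gating. Other steps used Python 3.11.15 with scikit-learn 1.9.0 and scipy 1.17.1.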

Additional observations from a re-analysis of the deposited data

Results flagged for a closer look

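The effect of *Ets1* eKO differed between *Sln*-rich and compact cells by its own test (the class by condition term in edgeR) for 3 members, by -1.48 for *Myh7*, -1.45 for *Myl2* and -1.58 for *Myl3* on the log2 scale. It also differed between AVC and compact cells for *Myl3*, by -0.79. These tests were added after the values by class had been seen. With doublets kept, the *Sln*-rich value was -0.47 for *Myh7* and -0.21 for *Myl2*, neither of which passed, and -0.56 for *Myl3*, which did. The *Myh7* call was also lost without control replicate 2 and with total count scaling, and the *Myl2* call with thinned cells. The AVC value of *Myl3* with doublets kept was -0.73, which did not pass (adjusted p = 0.0592 in edgeR). The AVC call was also lost with doubled cutoffs, with thinned cells and without either *Ets1* eKO library. No group had 4 libraries, so single libraries were not tested as outliers.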

How the results depend on the processing

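Of 984 alternative values of the members, 64 had the opposite sign to the reported one, in 60 of them with neither value past the threshold. With 8 members per comparison, leaving out 1 library gave 0 to 1 called between *Ets1* eKO and control in compact cells, 0 to 6 in trabecular, 0 to 4 in cycling, 0 to 4 in *Sln*-rich and 0 to 1 in AVC cells (0 reported in each). It gave 0 to 4 for the difference of the effect in trabecular cells (0 reported) and 0 to 5 in AVC cells (1 reported). In *Sln*-rich cells DESeq2 called 2 members and 25 of 1142 genes, no filter on low counts 3 members and 256 of 16456 genes, the replicate block 3 and 112 of 7751, doubled cutoffs 3 and 6 of 5967, and thinned cells 1 and 19 of 3293. In AVC cells no filter called 2 members and 162 of 17347 genes. Without the library term, 3 members and 2960 of 11758 genes were called in trabecular against compact cells (7 and 4952 reported) and 3 and 3345 of 12706 in cycling against compact cells (8 and 6716 reported). For the difference of the effect, doubled cutoffs called 1 member and 21 of 11104 genes in trabecular cells, keeping doublets 1 and 28 of 11100 in *Sln*-rich cells (3 and 46 reported), and in AVC cells total count scaling called 2 and 90 of 11143 (1 and 65 reported). Keeping doublets, doubled cutoffs and thinned cells each called 0 members in AVC cells, with 58 of 11300, 18 of 10228 and 11 of 6743 genes. With total count scaling the difference for *Myh7* in *Sln*-rich cells was -1.40 (adjusted p = 0.0808 in edgeR). The causes were not tested.

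*Ttn* in cycling against compact cells went from 0.080 to -0.021 with thinned cells, and its call was also lost without control replicate 2 and with total count scaling. *Ttn* in *Sln*-rich against compact cells went from -0.0083 to 0.16 with total count scaling and with thinned cells. *Myl7* in the trabecular difference ranged from -0.31 to 0.74 with 1 library left out.

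For isoform percentages (points, *Ets1* eKO minus control), thinned cells gave -8.08 for *Myh7* in AVC, -2.08 for *Myl2* in AVC, 1.32 for *Myl3* in AVC and -3.62 for *Myl2* in *Sln*-rich cells. Keeping doublets gave -2.74 for *Myl2* and -4.47 for *Myl3* in *Sln*-rich cells, and doubled cutoffs -11.7 for *Myl2* in AVC cells. Against compact cells, thinned cells gave -26.0 for *Myh7*, -19.9 for *Myl2* and -24.1 for *Myl3* in AVC and -71.0 for *Myl2* in *Sln*-rich cells, and doubled cutoffs 7.08 for *Myl2* in cycling cells. The other 177 of 189 percentages moved by less than the spread between libraries.

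Over all genes, leaving out *Ets1* eKO replicate 1 called 558 in compact, 1822 in trabecular, 2409 in cycling, 200 in *Sln*-rich and 11 in AVC cells, against 2, 7, 1, 0 and 49. The replicate block called 54, 48, 47, 112 and 25, and deviations of same-numbered libraries correlated between -0.089 and 0.038. These values showed no pairing by number, but with 2 libraries per genotype they cannot exclude it. Total count scaling called 2493 genes higher and 1239 lower in *Sln*-rich against compact cells (1671 and 1862 reported), 3398 and 1509 in AVC cells (2112 and 2299) and 1986 and 3351 in trabecular cells (2569 and 2383). The 49 to 101 *Sln*-rich cells per library limit what that class can show.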
